A study of Homo sapiens with 7 samples.

Results

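The regions bound by ATF4 before MYC activation were compared with the regions that MYC occupied 8 hr after activation. Peaks of the 2 ATF4 libraries of control cells were merged where they shared at least 1 bp, which gave 2344 control ATF4 regions, against 29946 merged ATF4 and MYC regions in the whole series. Of these, 151 had a peak in both control libraries and 2193 had a peak in a single library, 765 of them in replicate 1 and 1428 in replicate 2. Each region was placed on, within 1 kb, within 10 kb, within 100 kb or over 100 kb from the nearest of the 6313 MYC regions that had a peak in both MYC libraries, with the gap taken between region edges.

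All libraries came from DLD-1, an established line of human colon adenocarcinoma, which carried a retrovirus for MycER, a fusion of MYC that a ligand switches on. Control cells received vehicle, and activated cells received 500 nM of 4-hydroxytamoxifen, the ligand of MycER, with chromatin taken at 8 hr. ATF4 was profiled by chromatin immunoprecipitation and sequencing (ChIP-seq) in 2 control and 2 activated libraries, and MYC in 2 activated libraries. The labels give replicate numbers and do not say that these were separate cultures, so spreads may be technical. No group without MycER that received the ligand is among these samples. A MYC profile of vehicle-treated cells was not analysed here either, so MYC already in place before activation cannot be told apart from MYC that came with it.

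ATF4 is a basic leucine zipper transcription factor that accumulates when the kinases of the integrated stress response slow translation. It binds, often with a C/EBP partner, at a composite element whose core reads TGATGNAA, and it drives genes for amino acid uptake, amino acid synthesis and tRNA charging. MYC binds with MAX at the E-box CACGTG and raises genes of ribosome production, translation and growth. Both factors are therefore known for the supply of amino acids to protein synthesis, from different sides.

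The lists differed in depth and in their lowest listed value. One tag was worth a constant step in each list, from which the depth came to 21.0 to 24.9 M tags (1 M is 1000000) in the replicate 1 libraries and 49.8 to 50.3 M tags in the replicate 2 libraries. Levels are given as tags of a peak after scaling each library to 10 M tags. The lowest listed peak had 4.46 and 2.98 tags in the control libraries, 3.21 and 2.81 in the activated ATF4 libraries, and 3.8 and 2.39 in the MYC libraries. A region missing from a list did not pass that list's call and was not shown to be unbound. Nor does a missing call mean low tags. A region nearest to CWH43 with 33.5 and 29.4 control tags had 31.3 in activated replicate 1 and was missing from activated replicate 2. Of 12 marker genes of colon epithelium, 6 of blood and 6 of fibroblasts, none had a control ATF4 region called in both libraries at an end or inside, and a MYC region lay at an end of 2 of the colon epithelium markers. Over all protein-coding genes the shares were 0.354% and 10.4%. ChIP-seq does not measure expression, so these counts do not test the cell type.

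The promoter sequences that lay under control ATF4 regions show the motifs that the later results refer to. The stretches below are the parts of the promoter window upstream of the transcription start that a control ATF4 region covered, 5′ to 3′ on the strand of the gene, from RefSeq on GRCh38.p14. Capitals mark TGATGNAA on either strand and CACGTG. Every stretch shown holds TGATGNAA. Stretches at PCK2 and ISL2, and the shorter ones at ASNS and DLGAP1-AS6, held neither motif and are not shown. TBL1X and DLGAP1-AS6 are shown because their region lay on a MYC region, CHAC1 and LOC102724467 because theirs lay within 1 kb of one, and FGF21 and ASNS, picked after their values were seen, because they lay farther away.
TBL1X, chrX:9463146-9463294, plus strand: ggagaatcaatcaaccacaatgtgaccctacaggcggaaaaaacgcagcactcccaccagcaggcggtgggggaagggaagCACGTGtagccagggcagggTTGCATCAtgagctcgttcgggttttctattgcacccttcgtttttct
DLGAP1-AS6, chr18:3652780-3652966, plus strand: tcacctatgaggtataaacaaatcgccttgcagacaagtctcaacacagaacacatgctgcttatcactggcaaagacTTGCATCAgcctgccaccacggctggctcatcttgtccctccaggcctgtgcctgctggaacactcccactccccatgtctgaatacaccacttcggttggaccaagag
CHAC1, chr15:40953221-40953392, plus strand: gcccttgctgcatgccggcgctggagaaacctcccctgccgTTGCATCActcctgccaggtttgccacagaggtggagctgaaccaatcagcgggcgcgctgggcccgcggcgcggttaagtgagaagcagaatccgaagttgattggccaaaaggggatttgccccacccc
LOC102724467, chr16:87779149-87779293, minus strand: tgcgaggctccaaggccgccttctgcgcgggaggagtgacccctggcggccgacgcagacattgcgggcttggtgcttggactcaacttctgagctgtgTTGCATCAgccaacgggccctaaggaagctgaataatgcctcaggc
FGF21, chr19:48755347-48755523, plus strand: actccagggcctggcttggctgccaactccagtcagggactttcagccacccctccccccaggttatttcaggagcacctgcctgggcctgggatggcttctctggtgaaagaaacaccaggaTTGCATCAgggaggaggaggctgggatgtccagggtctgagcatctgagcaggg
ASNS, chr7:97872409-97872590, minus strand: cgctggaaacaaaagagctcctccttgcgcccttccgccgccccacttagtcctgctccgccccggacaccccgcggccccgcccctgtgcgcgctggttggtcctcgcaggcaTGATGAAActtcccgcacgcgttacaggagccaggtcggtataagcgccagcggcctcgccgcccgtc

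In TBL1X the ATF4 core lay 48 to 41 bases upstream of the start and the E-box 68 to 63 bases upstream, and the MYC region overlapped this stretch as well. The CHAC1 core lay 209 to 202 bases upstream and the ASNS core lay 68 to 61 bases upstream. RefSeq promoter windows ran from 250 bases before to 50 bases after a start. Of the 12 windows under control ATF4 regions called in both libraries, 8 held TGATGNAA on either strand, against 1270 of all 35116 windows, or 3.62%. The windows under regions called in a single control library held it in 9 of 19. Under MYC regions, 2.43% of 1154 windows held TGATGNAA and 23.1% held CACGTG, against 7.26% of all windows for CACGTG. The E-box was in 1 of the 12 windows under control ATF4 regions called in both, that of TBL1X. Under regions called in a single control library it was in 5 of 19, or 26.3% (9.15 to 51.2%). A match describes the letters in a window and is neither a site nor a cause of binding. The 12 windows belong to 10 genes, and windows of neighbouring starts overlap. The matches of FGF21 and FUT1 are the same bases read from opposite strands, and the 8 count them for both genes.

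ATF4 regions that were called in both control libraries lay on MYC regions at a higher share than regions called in a single library. Of the 151, 26 lay on a MYC region, or 17.2% (95% exact binomial interval 11.6 to 24.2%). Of the 2193, 23 did, or 1.05% (0.666 to 1.57%). The share was 1.18% for regions of replicate 1 alone and 0.98% for regions of replicate 2 alone, so on MYC neither single list stood apart. These intervals cover counting error only. MYC regions covered 0.0417% of the annotated chromosome span, and 0.923% of 40066 ends of protein-coding genes, taken as single bases, lay on one.

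The difference between the 2 sets was widest, as a ratio, on the MYC regions themselves. Within 1 kb, counting those on a MYC region, lay 20.5% of the regions called in both and 4.06% of those called in a single library. Within 10 kb the shares were 28.5% (21.4 to 36.4%) and 12.9% (11.5 to 14.4%), and the share of gene ends was 13.2%. Within 100 kb they were 54.3% (46.0 to 62.4%) and 46.5% (44.4 to 48.6%), beside 50.7% of gene ends and 24.4% of the annotated span. At these distances the single lists stood apart. Within 10 kb lay 17.3% (14.6 to 20.1%) of regions of replicate 1 alone and 10.6% (9.03 to 12.3%) of replicate 2 alone. Within 100 kb lay 54.2% and 42.3%, so replicate 1 alone had about the share of regions called in both. Taken by class without the regions on MYC, 5 regions called in both lay under 1 kb away, 12 at 1 to 10 kb, 39 at 10 to 100 kb and 69 beyond 100 kb, which were 3.31%, 7.95%, 25.8% and 45.7% of the 151. For regions of a single library the same classes held 3.01%, 8.85%, 33.6% and 53.5%. Of gene ends, 5.31% (5.09 to 5.53%) lay within 1 kb, above the interval of single-library regions (3.27 to 4.97%).

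**Figure D1:**
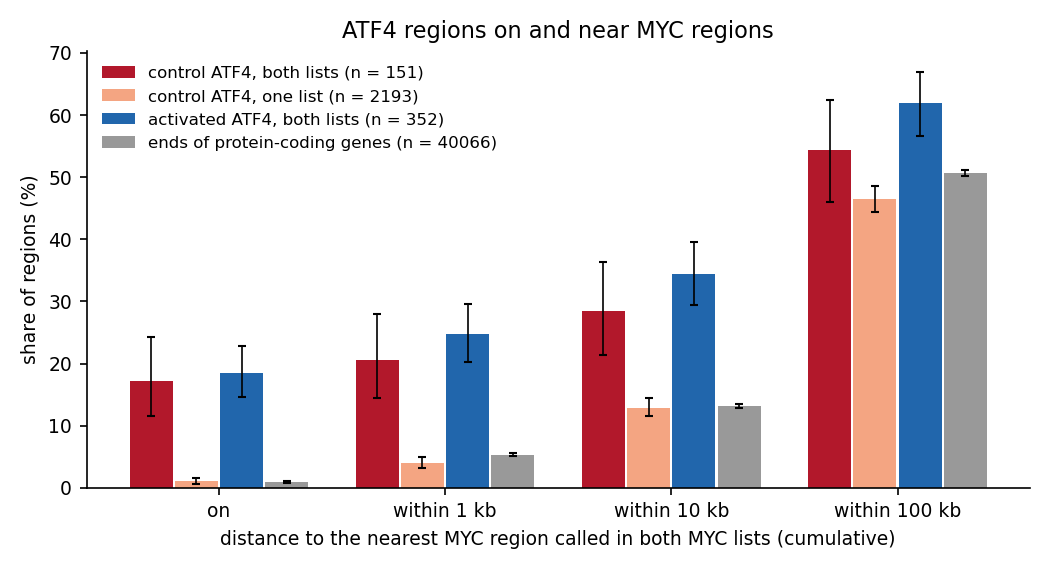
Cumulative share of regions (y axis, %) on and within 1, 10 and 100 kb of a MYC region called in both MYC lists (x axis), for control ATF4 regions called in both lists or in 1, activated ATF4 regions called in both, and ends of protein-coding genes. Bars are shares and whiskers 95% exact binomial intervals; on MYC regions the bar of regions called in both control lists is at 17.2% and that of single-list regions at 1.05%.

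ATF4 regions of activated cells lay on MYC regions at a share whose interval overlapped that of control cells. Of 352 activated regions called in both libraries, 65 lay on a MYC region, or 18.5% (14.6 to 22.9%), and 34.4% lay within 10 kb. Of those 65, 26 shared bases with a peak in both control lists, 16 with a peak in 1 control list and 23 with none (35.4%). Over all 352 the counts were 105, 95 and 152 (43.2% with none), and of the 287 off MYC, 129 had none (44.9%). STK40 was the 1 region counted on MYC with its activated edges and off MYC with its control edges. Per library, 3.71% and 2.53% of control peaks lay on MYC regions, and 5.59% and 4.44% of activated peaks did. Both activated values were above both control values, which did not hold with MYC regions of either library or with MYC replicate 1 alone. The means were 5.01% ± 0.815 and 3.12% ± 0.833 (SD, n = 2 each), with a two-sided exact permutation p of 0.33, the smallest that 4 libraries allow.

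How MYC regions were defined changed the share. Of the 125 control regions called in both that lay off the MYC regions, 44 lay on a MYC region called in 1 MYC list, 35 of them in the deeper replicate 2 list and 9 in replicate 1. With every MYC region counted, 70 of 151 (46.4%) were on MYC, against 5.93% of single-list regions. The 9 of replicate 1 were the region at DDIT4 and regions between genes, over 100 kb from MYC regions of both libraries. Those between genes all had folds over background, as the authors' peak caller gave them, under 4 in both control libraries. Named examples among the 44 were regions at DDIT4, FGF21 and FUT1, SHMT2, SREBF1, VLDLR, ISL2, inside ASNS, and near TRIB3 and TCP11L2. Regions inside KIF21B, FNDC3B and B4GALT5, and near KLHDC4, DYM, MRPS18A and GNLY, named further below, were among the 44 too. Where such a gene is given below with a distance or distance class to MYC, it refers to the nearest MYC region of both libraries.

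Regions inside the amino acid transporter genes SLC43A1 and SLC7A5 stood highest by mean control level among the 26 shared regions. The region at SLC7A11, also a transporter gene, stood well below them. SLC43A1 encodes a transporter of large neutral amino acids, and the region inside it (hg38 chr11:57493586-57493798) had the highest mean level, with 29.0 and 16.3 ATF4 tags in the control libraries. MYC tags there were 4.75 and 10.2. SLC7A5 encodes the light chain of the leucine importer LAT1, and its intragenic region (chr16:87853633-87853849) had 23.7 and 15.9 ATF4 tags. MYC tags there were low for a MYC region, at 4.28 and 6.59. The region at the end of SLC7A11 (chr4:138242312-138242532), the cystine and glutamate exchanger, had 5.36 and 5.77 ATF4 tags and 9.03 and 14.2 MYC tags. Their common heavy chain is SLC3A2, which pairs with both SLC7A5 and SLC7A11, and the region inside SLC3A2 lay on MYC as well. It was called in control replicate 1 alone, with 9.82 tags, and in both activated libraries, with 6.81 and 10.4 tags.

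The next regions by level lay in or near genes of varied roles. The region inside TBC1D16, which encodes a GTPase-activating protein for Rab proteins, had 21.4 and 17.1 ATF4 tags and 9.98 and 22.6 MYC tags. The region 7632 bp from NRSN2 had 14.3 and 9.34 ATF4 tags and 15.2 and 24.9 MYC tags. A region 260087 bp from KLF4, the nearest gene and a transcription factor of epithelial differentiation, had 14.7 and 8.15 ATF4 tags. In each of these regions control replicate 1 was above replicate 2. The region 893 bp from an end of EIF4EBP1, the repressor of cap-dependent translation that mTORC1 inactivates, had 10.7 and 10.1 ATF4 tags. MYC tags at EIF4EBP1 were 11.9 and 23.9, above those of 95.8% of MYC regions by mean level. A region near ARHGAP23 had 11.6 and 7.95 ATF4 tags and 5.23 and 4.39 MYC tags. At EIF4EBP1 the ATF4 region overlapped a peak of MYC replicate 2 but none of replicate 1, and near ARHGAP23 the reverse held. They count as shared through the merged MYC region, so 1 of the MYC values of each is from a peak beside the ATF4 region. Every other shared region overlapped a peak of each MYC list. EIF4EBP1 was the sole shared region at a gene end among the 15 with the highest control level.

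From OXR1 downwards the control levels were under 10 tags in both libraries. OXR1, a gene of resistance to oxidative damage, held a region with 8.93 and 7.75 ATF4 tags. The uncharacterised gene LOC124902669 was the nearest to a region with 8.93 and 6.56 ATF4 tags. Both regions had MYC tags between 5.23 and 6.99. GNG7, a G protein gamma subunit, held a region with 8.04 and 7.16 ATF4 tags. ATXN1, which encodes ataxin 1, held one with 8.04 and 6.16. CEP112, which encodes a centrosomal protein, held one with 7.59 and 6.56. The region near LARP6, an RNA-binding protein of collagen messages, had 7.59 and 6.16 ATF4 tags, and the one inside EEIG1 had 5.36 and 7.16. EEIG1 was the sole member of these 15 with the higher control value in replicate 2. The other 11 had 5.36 to 6.7 tags in control replicate 1 and 3.98 to 6.16 in replicate 2. They lay at TBL1X, SLC7A11 and SH3BP2, inside PEBP4, CATSPERD, DLGAP1 and RANBP2, and nearest to MRPL33, BTC, F3 and DAZL.

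**Figure D2:**
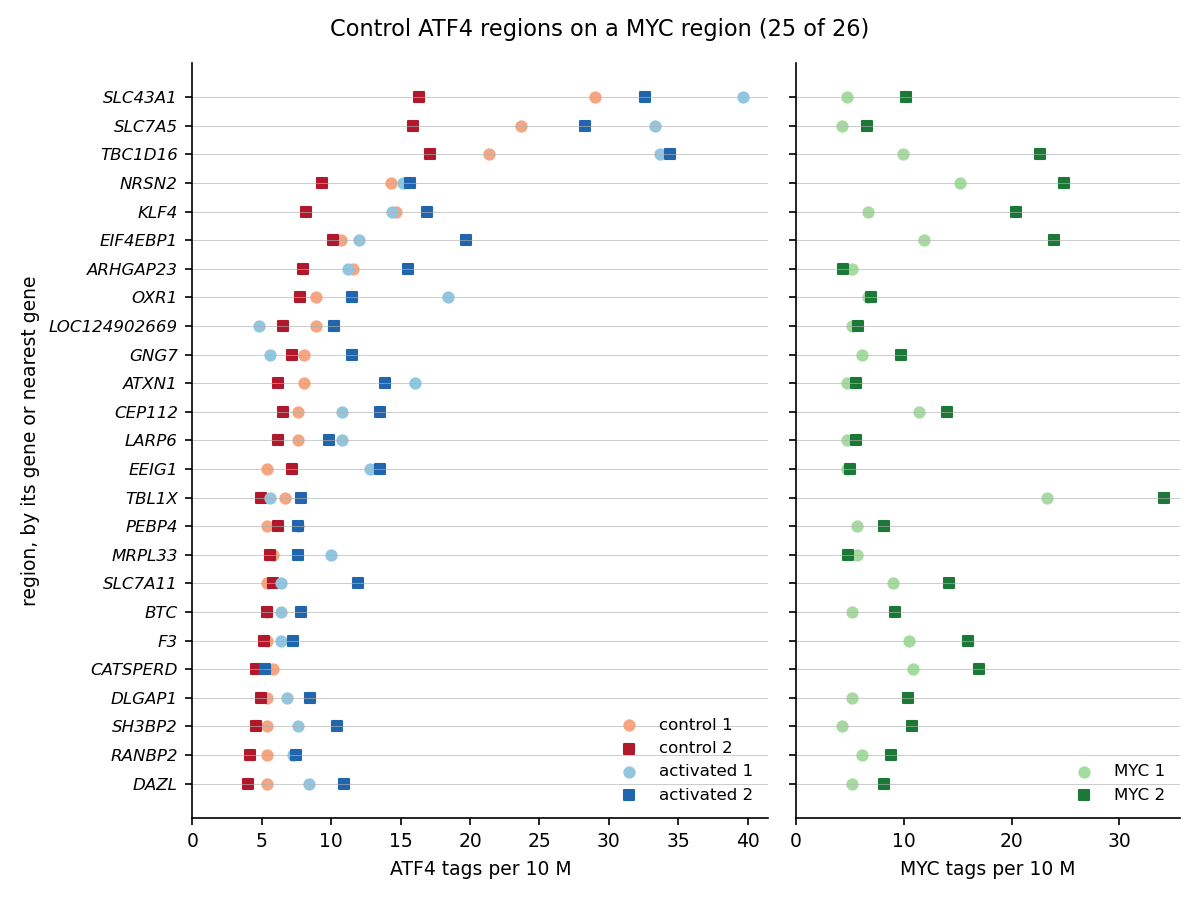
ATF4 tags (left) and MYC tags (right) per 10 M tags (x axes) at 25 of the 26 control ATF4 regions on a MYC region, ordered by mean control ATF4 level and named by gene or nearest gene (y axis). Each point is 1 library; SLC43A1 leads for ATF4 at 29.0 and 16.3 control tags, TBL1X leads for MYC at 23.3 and 34.1, and CATSPERD lacks a point for activated replicate 1.

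Among the shared regions, the one with the most MYC tags was low in ATF4 tags. TBL1X, which encodes a subunit of the NCoR corepressor complex, had 23.3 and 34.1 MYC tags, above 99.6% of MYC regions, with only 6.7 and 4.97 ATF4 tags in the control libraries. It was followed for MYC by NRSN2, EIF4EBP1, TBC1D16 and CATSPERD, the last with 10.9 and 17.0 MYC tags and 5.8 and 4.57 ATF4 tags. Across the 26, median MYC tags were 5.7 and 9.48, beside 6.18 and 8.98 over all 6313 MYC regions. By mean level the shared regions ran from the position above 8.4% of MYC regions to that above 99.6%, with a median of 49.2%. MYC regions on a control ATF4 region called in both libraries were 26 of 6313, or 0.412%. With control ATF4 regions of either library counted, 6264 of the 6313 lay on none.

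The centres of the ATF4 and the MYC region were close, which the rule that chose these regions largely fixed. Regions on MYC share at least 1 bp with narrow MYC regions, so their centres could not lie far apart. The gap between the centre of the ATF4 region and that of the MYC region had a median of 41.0 bp and ran from 6 bp to 219 bp, the latter near ARHGAP23, and 22 of 26 were within 100 bp. Peaks were 149 to 213 bp wide. Of the 26, 4 lay within 1000 bp of a gene end, 13 inside a gene and 9 between genes. That was 15.4% at gene ends (4.36 to 34.9%), against 28.5% of all MYC regions (27.4 to 29.6%) and 8.8% of the 125 control ATF4 regions off MYC.

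The 5 control regions of the class under 1 kb lay next to a MYC region of both libraries without touching it. CHAC1, which encodes an enzyme that degrades glutathione and is a textbook ATF4 target, had its region 217 bp from a MYC region, with 14.3 and 10.3 ATF4 tags. The region at STK40, a serine/threonine kinase gene, adjoined its MYC region (gap of 1 bp) and had 16.5 and 10.5 ATF4 tags. A region 153 bp from a MYC region and 140342 bp from VEGFA, its nearest gene, had 13.4 and 11.1. In all 3 the 2 control values were well above the lowest listed values. The region nearest to KLHDC4, which covers the start of LOC102724467 printed above, had 17.9 and 16.5 ATF4 tags at 935 bp from MYC. The region nearest to DYM, a Golgi protein gene, had 6.25 and 4.37 at 778 bp. The regions nearest to KLHDC4 and DYM each lay on a MYC region called in MYC replicate 2 alone.

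At 1 to 10 kb the leading region lay 2025 bp from HSPA5, the main chaperone of the endoplasmic reticulum, with 16.1 and 13.1 ATF4 tags. It was followed by regions inside GSE1 with 12.1 and 9.34, inside KIF21B, a kinesin gene, with 12.1 and 9.14, and inside SLC1A5 with 6.25 and 9.14. SLC1A5 encodes the glutamine importer ASCT2, and its region lay 1810 bp from a MYC region. A region near MDM4, an inhibitor of p53, had 7.59 and 7.55. Several textbook ATF4 targets stood at 10 to 100 kb. DDIT4, an inhibitor of mTORC1, had 26.8 and 20.9 tags 25223 bp from a MYC region. FGF21, a stress hormone, and its neighbour FUT1 shared a region with 22.3 and 14.5 tags. The region near TCP11L2 had 21.4 and 14.9, and the one near TRIB3, a pseudokinase that restrains ATF4 signalling, had 13.8 and 11.7. The fourth by level, between these, was a region nearest to LOC124903767 on chromosome 16, with 15.6 and 10.9 tags at folds of 1.88 and 1.31. The regions at DDIT4, FGF21, TCP11L2 and TRIB3 each lay on a MYC region of 1 MYC list and were off MYC only as regions of both lists define it.

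Over 100 kb from MYC the regions with the most tags were of another kind. The 5 highest had 33.5 and 29.4 tags (nearest gene CWH43, chromosome 4), 28.1 and 18.9 (chromosome Y), 25.9 and 22.1 (chromosome 21), 22.3 and 22.1 (chromosome 18) and 20.1 and 20.5 (chromosome 20). All 5 were between genes and had a fold over background, as the authors' peak caller gave it, of at most 2.0 in either control library. Those on chromosomes 21 and 20 lay on a MYC region called in MYC replicate 1 alone. Regions of low fold were nearly all in this class. Of the 20 regions called in both whose higher control fold was under 2, 19 lay over 100 kb from MYC, and the 20th lay between 10 and 100 kb.

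Control ATF4 tags were alike on and off MYC as medians, and fold over background was not. Median control tags were 7.59 and 6.16 on MYC, and 7.14 and 6.36 off MYC. The median of the higher control fold was 11.8 on MYC, 13.5 under 1 kb, 10.8 at 1 to 10 kb, 9.18 at 10 to 100 kb and 2.75 over 100 kb. A fold of at least 4 was reached by 21 of 26 regions on MYC and by 29 of 69 over 100 kb. Among the 69 were regions of known ATF4 targets with high folds, including the region inside ASNS, the asparagine synthetase gene, with 5.8 and 6.36 tags and folds of 50.25 and 27.54. Calls after activation in the class over 100 kb are given by fold as well.

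**Figure D3:**
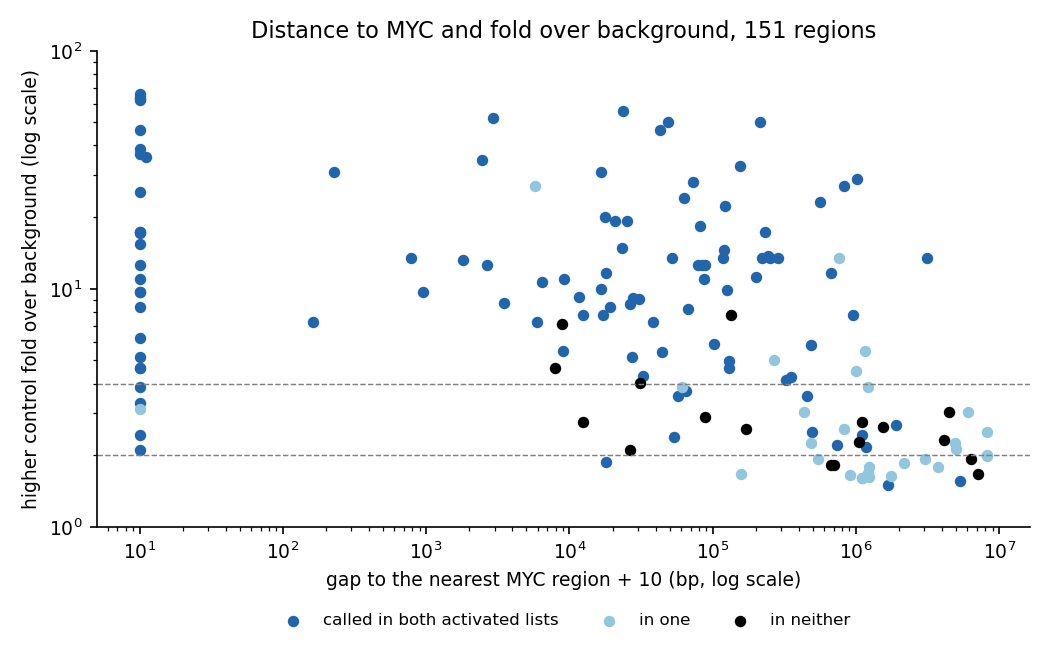
Higher of the 2 control folds over background (y axis, log scale) against the gap to the nearest MYC region plus 10 bp (x axis, log scale) for the 151 control ATF4 regions called in both lists, coloured by the number of activated lists that called them again. Dashed lines mark folds of 2 and 4; the 26 regions on MYC stand in the column at the left, and 19 of the 20 regions under a fold of 2 are over 100 kb away.

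Among 12 amino acid transporter genes, 4 had a control ATF4 region called in both libraries at an end or inside (SLC7A11, SLC7A5, SLC1A5 and SLC43A1), and for 3 of them that region lay on MYC. Over all 20052 protein-coding genes, 71 had such a region (0.354%) and for 17 it lay on MYC (0.0848%). Of 24 regulators and targets of the integrated stress response, 6 had a control region: CHAC1, DDIT4, FGF21, VLDLR, EIF4EBP1 and PCK2. EIF4EBP1 was the 1 of these 6 with its region on MYC. The gene lists were chosen with earlier results of these data known, and the stress response list includes known ATF4 targets. Their shares beside those of all genes are therefore descriptions and not evidence of enrichment. VLDLR, a lipoprotein receptor, had 6.25 and 5.17 tags at 222477 bp from MYC, and PCK2, the mitochondrial enzyme that makes phosphoenolpyruvate, had 12.5 and 11.5 at 52359 bp.

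Genes of amino acid synthesis and folate metabolism with a control region were ASNS and SHMT2, the latter the mitochondrial serine hydroxymethyltransferase, with 13.8 and 8.35 tags at 16501 bp from MYC. None of the 20 cytosolic aminoacyl-tRNA synthetase genes and none of the 18 genes of ribosome biogenesis had a control ATF4 region called in both. A MYC region lay at an end of 6 of those 20 and of 12 of those 18 genes, against 10.4% of all protein-coding genes. The 18 were listed as textbook MYC targets, so their share does not describe ribosome biogenesis genes at large. XBP1, a transcription factor of the unfolded protein response, was the 1 of 10 endoplasmic reticulum stress genes with a control region, with 4.91 and 4.97 tags. In the MYC network the 1 gene of 11 with a control region was MYC itself, with 9.38 and 7.16 tags at folds of only 2.39 and 1.55. Activated tags there were 7.22 and 8.04. The MycER retrovirus carries MYC sequence too, so tags inside MYC may come from the gene or the retrovirus. Their source was not tested, and this region is not shown to be ATF4 binding at the gene.

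Nearly all control regions on MYC were called again in activated cells. Of the 26, 25 were called in both activated ATF4 libraries, or 96.2% (80.4 to 99.9%), and the other, inside CATSPERD, was called in activated replicate 2. All 5 regions under 1 kb, 9 of 12 at 1 to 10 kb, 34 of 39 at 10 to 100 kb and 32 of 69 over 100 kb (46.4%) were called in both. Over all 151 the share was 69.5%. Fold over background moved with this share, and its part in it was not tested. Of the 29 regions there with a fold of at least 4, 24 were called in both activated libraries, and of the 40 with a lower fold, 8 were. Of the 26 regions over 100 kb that were called again in a single activated library, 21 were called in replicate 1.

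Among regions of a single control library, those on MYC were called again at a higher share than those off MYC. Of the 23 on MYC, 16 were called in both activated libraries (69.6%, 47.1 to 86.8%), 5 in a single one and 2 in neither. Of the 2170 off MYC, 78 were called in both (3.59%, 2.85 to 4.47%), and over all 2193 the share was 4.29%. Among those with a fold of at least 4 the counts were 10 of 14 on MYC and 57 of 968 off MYC. Off MYC but under 1 kb away, 4 of 66 were. With MYC regions of either library counted, 33.1% on MYC and 2.47% off MYC were called in both. Without MYC replicate 2 the share on MYC was 24.6% (17 of 69). Without activated replicate 1 the share off MYC was 6.73%, and without activated replicate 2 it was 8.25%.

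Among those of control replicate 1 alone, the region inside LRRC59, which encodes a ribosome-binding protein of the endoplasmic reticulum, had 12.1 tags there, and 10.8 and 14.1 tags in the activated libraries. The region inside PPIAP60 had 8.93 tags, then 8.42 and 11.3. The region inside CLIP1, which encodes a microtubule plus-end protein, had 5.8 tags and was called in activated replicate 2 with 5.22. Highest in tags was a region between genes on chromosome 16, with 17.9 tags at a fold of 1.52, called again in activated replicate 1 alone.

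Among regions of control replicate 2 alone, the one 185 bp from an end of CEBPB, a partner of ATF4 in the C/EBP family, had 5.96 tags in control cells. It had 7.22 and 12.7 tags in activated cells, and 8.56 and 15.6 MYC tags. The region inside POFUT1, a protein O-fucosyltransferase gene, also had 5.96 tags in control cells, then 12.0 and 12.1. The region near TMSB10, a thymosin gene, had 6.36 tags, then 9.22 and 8.64, and the one inside WDR20 had 5.37, then 7.62 and 9.85. The region inside MUC6, a mucin gene, had 6.36 tags at a fold of 1.53. XPOT, the exporter of tRNA from the nucleus, and SUSD1 were the 2 of 23 without an activated call.

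**Figure D4:**
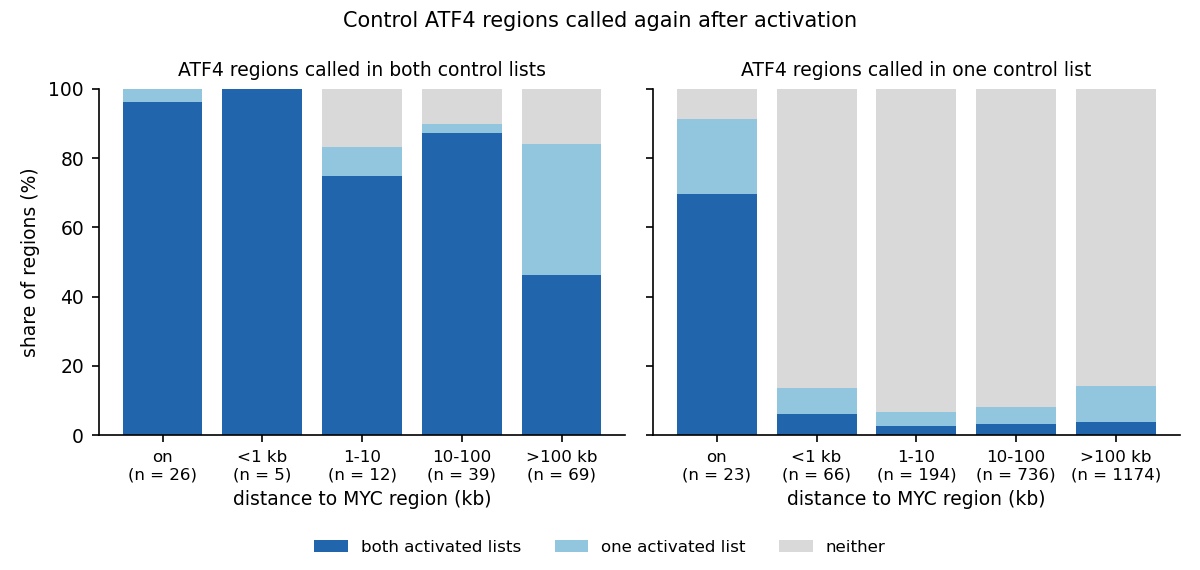
Share of control ATF4 regions (y axis, %) called in both, 1 or neither of the activated ATF4 lists, by distance to MYC regions (x axis), for regions called in both control lists (left) and in 1 (right). On MYC, 25 of 26 and 16 of 23 were called in both activated lists; at the other distances the right panel stays at 4 of 66 or below as a share.

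ATF4 tags could be compared between control and activated cells at the 105 regions that were called in all 4 ATF4 libraries. Values were tested as log2(tags + 1) with limma across all 105, two-sided, with Benjamini-Hochberg adjustment, so fold changes are on that scale. The 46 of 151 control regions that missed an activated call are not among them, so regions that fell below the call could not be counted as lower. After activation 39 of the 105 were higher (37.1%) and 0 lower (0%), and at an unadjusted p under 0.05, 57 were higher and 0 lower. The median change was 0.54. In 77 of 105 regions (73.3%) both activated values were above both control values. This count rests on the scaling, on the fit without a block and on all 4 libraries. With the replicate number as a block (replicate block), limma called 0 higher, with a smallest adjusted p of 0.115; depth differed between the 2 numbers in every group. With each library centred on its median the median change became -0.11, and limma called 0 higher and 9 lower, 1 of them on MYC and 5 over 100 kb, 4 of which had a fold under 4. With any 1 library left out, limma called 0 higher.

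Changes on MYC and off MYC had nearly the same median. Of the 25 on MYC, 9 were higher (36%), and of the 80 off MYC, 30 were (37.5%), with median changes of 0.54 and 0.53. The classes under 1 kb, at 1 to 10 kb, at 10 to 100 kb and over 100 kb had 3 of 5, 4 of 9, 14 of 34 and 9 of 32 higher, with median changes of 0.96, 0.51, 0.62 and 0.36. Over 100 kb, the 9 were among the 24 regions with a fold of at least 4 (median change 0.56), and 0 of the 8 with a lower fold were higher by limma, also at an unadjusted p under 0.05 (median -0.04). The difference of mean log2 level between regions on and off MYC was 0.05 and 0.01 in the control libraries, and 0.0 and 0.1 in the activated libraries. Its mean was 0.03 ± 0.0271 in control and 0.05 ± 0.0684 in activated cells (SD, n = 2 each; two-sided exact permutation p = 1.0, with 0.33 the smallest possible).

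**Figure D5:**
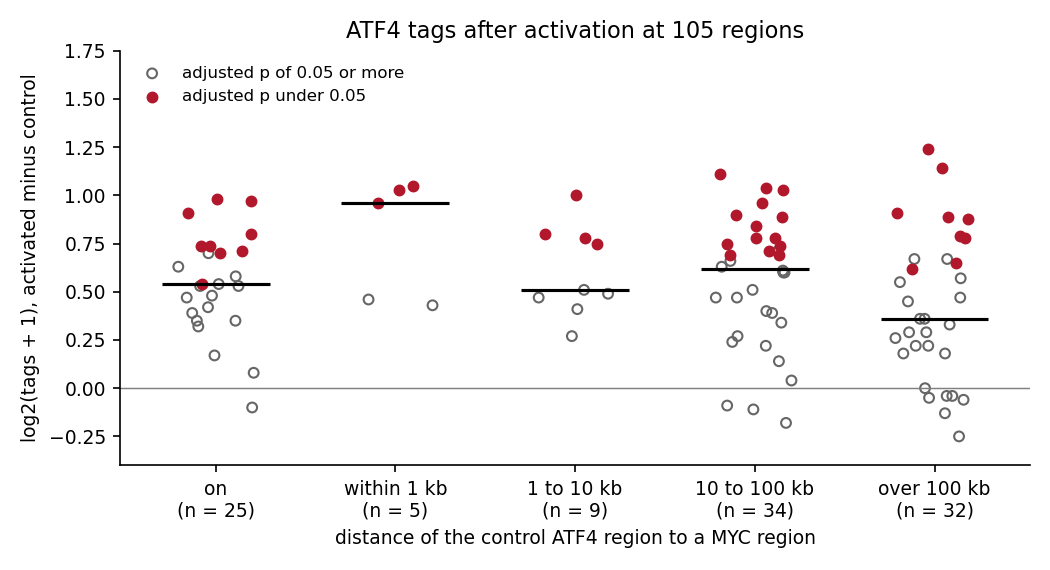
Change of log2(tags + 1) from control to activated cells (y axis) at the 105 regions called in all 4 ATF4 lists, by distance to MYC regions (x axis); each point is 1 region, filled where the limma adjusted p was under 0.05, and bars are medians. The medians on MYC and at 10 to 100 kb are 0.54 and 0.62, and the filled points are spread over all 5 classes.

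Of the 5 largest called changes on MYC, the first was at ATXN1. It had 16.0 and 13.9 activated tags after its 8.04 and 6.16 control tags, a change of 0.98 ± 0.29 (SE; limma adjusted p = 0.00914). EEIG1 had 12.8 and 13.5 activated tags, a change of 0.97 ± 0.29 (limma adjusted p = 0.00985). The region near DAZL had 8.42 and 10.9 after 5.36 and 3.98, a change of 0.91 ± 0.26 (limma adjusted p = 0.00904). In these 3 regions the groups did not overlap. That was common: both activated values were above both control values in 20 of the 25 tested regions on MYC and 77 of all 105. TBC1D16 had 33.7 and 34.4 activated tags, a change of 0.80, and OXR1 had 18.4 and 11.5, a change of 0.74, with limma adjusted p of 0.0408 and 0.0397. The leading transporters did not pass the test. SLC43A1 had 39.7 and 32.6 activated tags, and SLC7A5 had 33.3 and 28.3, above both of their control values. SLC7A11 had 6.41 and 11.9, and TBL1X had 5.61 and 7.84, which overlapped its control values.

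The highest change was 0.98 on MYC and 1.24 off MYC, and the difference between them was not tested. CHAC1 had 28.5 and 24.3 activated tags, a change of 1.05 ± 0.30 (limma adjusted p = 0.00904), and the region near VEGFA had 25.7 and 26.1, a change of 1.03. The region near DYM changed by 0.96. At 1 to 10 kb the called regions were those at PGPEP1 with 1.0, GSE1 with 0.80, SLC1A5 with 0.78 and KIF21B with 0.75. At 10 to 100 kb the leaders were FNDC3B with 1.11, CYP2A7 with 1.04, FGF21 and FUT1 with 1.03, B4GALT5 with 0.96 and MRPS18A with 0.90. Over 100 kb they were TEK with 1.24 ± 0.29 (limma adjusted p = 0.00309), ASNS with 1.14 ± 0.29 (limma adjusted p = 0.00601), ISL2 with 0.91, VLDLR with 0.89 and GNLY with 0.88. ASNS had 14.0 and 15.3 activated tags, and TEK, the receptor of angiopoietins, had 16.8 and 18.3 after 6.25 and 7.55, at 3152887 bp from the nearest MYC region called in both.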

How the data were processed

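Peak lists of 6 ChIP-seq libraries were used (2 ATF4 control, 2 ATF4 activated, 2 MYC activated), each called per library and not pooled. Reads were aligned with Bowtie 0.12.9 to hg38 and handled with HOMER, per the submitters' processing notes; the peak-calling settings and the background library are not given in the sources used here. The deposited signal is the tag count of a peak scaled to 10000000 tags per library, per the file headers. The deposited ratio is the fold of a peak's tags over a background library, per the file headers, and was used only to describe and filter peaks. An IgG library was not analysed here.

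Peaks were merged at 1 bp with Python 3.11.15 (pandas 2.3.3, scipy 1.17.1), and the strongest peak gave a region's value. Regions were named by protein-coding RefSeq genes (GRCh38.p14) with an end within 1000 bp, else by the gene around them, else by the nearest. Named regions were the 15 shared ones with the highest mean control tags, all within 1 kb, the top 5 of each other class and of each single list, the 5 highest for MYC, members of gene lists, and the 5 largest changes per class past an adjusted p of 0.05. One of the 15 is not reported here by name and is left out of the plot of shared regions; it stays in all counts. Tags were tested with limma 3.58.1 (R 4.3.3, trend, no block), since the values are scaled tags and not counts in every list; the script was tested on simulated data. Members and lists were chosen with earlier results of these data known. Alternatives were MYC regions of either library, an overlap of 50% of the shorter region, peaks of at least 4-fold, distance between centres, a pseudocount of 0.1 in place of 1, median centring, at least 8 mean tags, a replicate block and leaving out each library.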

Additional observations from a re-analysis of the deposited data

How the results depend on the processing

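Values in this paragraph are percents of control ATF4 regions unless named otherwise. With MYC regions of either library, the share on MYC was 46.4 for regions called in both control libraries and 5.93 for those called in 1, the share within 10 kb was 70.2 and 39.4, and the share called in both activated libraries was 20 over 100 kb, 33.1 for single-library regions on MYC and 2.47 off MYC. When lists were cut to peaks with a fold of 4 or more, 37.6 of regions called in both lay within 10 kb, and the share called again was 100 on MYC, 91.3 over 100 kb and 6.12 for single-library regions off MYC. Leaving out 1 library, which lets the other define its factor alone, gave 2.53 to 39.7 on MYC and 12.3 to 58.3 within 10 kb for regions called in both, and 3.15 to 3.83 and 21.5 to 33.9 for single-library regions. It gave 82.4 to 100 called again on MYC and 7.61 to 76.8 over 100 kb, and for single-library regions 24.6 to 87 on MYC and 2.42 to 8.25 off MYC. An overlap of 50% or distances between centres left every share inside its interval. Limma called 0 regions higher with the replicate block, 0 with median centring (9 lower) and 0 to 0 with any 1 ATF4 library left out; a pseudocount of 0.1 gave 39 and the 8-tag filter 35. The activated minus control change of the on minus off log2 difference (0.02) turned to -0.04 with 4-fold peaks, -0.03 with the 8-tag filter and -0.05 within replicate number 1 (replicate block; 0.09 within number 2), and ran from -0.05 to 0.07 with 1 library left out. The activated minus control difference in the percent of ATF4 peaks on MYC (1.89) stayed positive, at 3.96 with MYC regions of either library (exact permutation p = 0.67), 1.15 to 4.59 with 1 library left out, and 1.88 and 1.9 within the replicate numbers. The replicate numbers gave a correlation of deviations of 0.1 over 105 regions, from 2 pairs, and are not shown to pair the samples. The causes were not tested. Replicate 1 lists were shallower and had higher lowest listed values, and the part of depth in these shifts was not tested.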
